A study of Cucurbita pepo with 12 samples.

Results

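Of the 27868 genes measured in zucchini (Cucurbita pepo, cultivar Costata Romanesco), 9 were transcribed in both pollen and root and were near zero in leaf. They were chosen by their measured levels, as genes with at least 5 FPKM in all 4 pollen and all 4 root libraries and under 1 FPKM in all 4 leaf libraries, where FPKM is the authors' value in fragments per kilobase of transcript per 1e6 reads. Plants were germinated for 10 days, moved to 500 g of soil, 1 per pot, and grown for 60 days until they flowered. The soil held copper oxide (CuO) nanoparticles at 100 mg/kg, CuO of ordinary particle size (bulk CuO) at 100 mg/kg or copper sulfate pentahydrate (CuSO4) at 320 mg/kg, or no added copper (control), and each material brought about 80 mg/kg of copper. Messenger RNA of pollen, root and leaf was sequenced, with 12 libraries in all, 1 per tissue and treatment. Differences between treatments within a tissue therefore have no replicate and no test. Where pollen was set against root, the 4 treatments of a tissue served as its replicates, paired by treatment. Those p-values rest on how much the pollen minus root difference varied between treatments, not between plants treated alike. The submitters mention 3 biological replicates per treatment, and whether their RNA was pooled into 1 library is not stated in the sources used here.

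Pollen grains are the male gametophytes of flowering plants and are built to deliver sperm cells through a pollen tube. Roots take up water and minerals, to a large part through root hairs. Pollen tubes and root hairs are both single cells that extend at the tip, and in Arabidopsis they are known to share parts of the machinery for secretion, wall loosening and calcium signalling. Leaves are dominated by transcripts for photosynthesis. Neither the deposited table nor the RefSeq gene table of assembly ASM280686v2 pairs the gene IDs with names, and 0 of the 27868 IDs were found in the RefSeq table. The 9 genes are therefore given by ID without a function, and markers of root, pollen and leaf could not be looked up. In samples of whole tissue, fewer cells that use a gene and less RNA per cell cannot be told apart.

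The libraries of a tissue were of similar depth. The spacing of low values gave depths, relative to the control library of the same tissue, of 0.986 to 1.15 in treated pollen, 0.917 to 1.10 in treated root and 1.003 to 1.08 in treated leaf. Read totals were not used here, so single values carry no counting interval. At least 1 FPKM was reached by 10309 to 11569 genes per pollen library, against 20550 to 20881 per root library and 19676 to 20957 per leaf library.

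Absence from leaf was rare among genes present in both other tissues. Pollen and root shared 3190 genes at 5 FPKM or more in all 8 libraries, and the 9 genes were 0.282% of them. A further 16 of the 3190 had their highest leaf value from 1 to 2 FPKM, 91 from 2 to 5 FPKM, and the median of that highest leaf value over the 3190 genes was 26.2 FPKM. By the same thresholds, 19 genes were shared by leaf and pollen and not root, and 2563 by root and leaf and not pollen. Just inside the floor of 5 FPKM stood Cp4.1LG17g09230, at 5.24 FPKM in bulk CuO root, and just outside it Cp4.1LG03g11090, at 4.81 FPKM in nanoparticle root. Just inside the ceiling of 1 FPKM stood Cp4.1LG03g07970, at 0.865 FPKM in control leaf, and just outside it Cp4.1LG20g05110, at 1.04 FPKM in CuSO4 leaf. These values chose the genes and are given as a description. The control leaf library set the number of genes more than any other: without it 15 genes met the rule, against 9 to 11 without any other library.

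**Figure D1:**
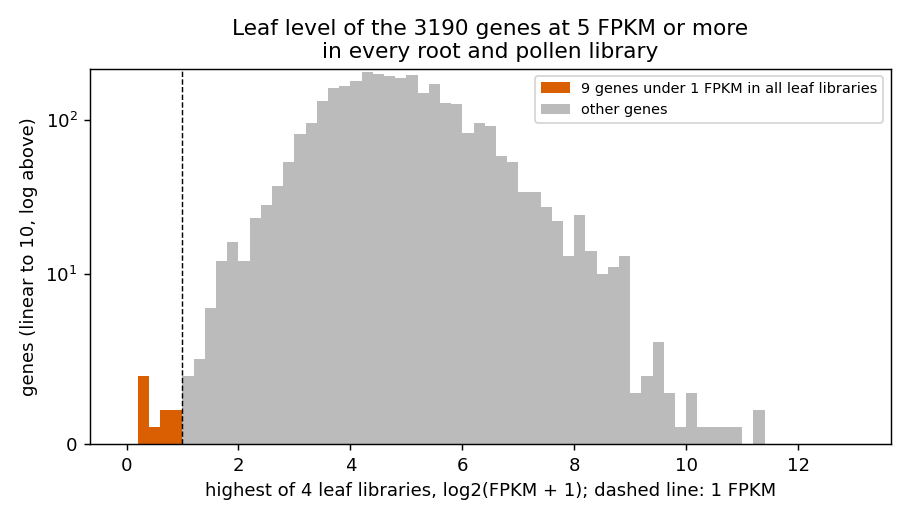
The highest of 4 leaf libraries, as log2(FPKM + 1), for the 3190 genes at 5 FPKM or more in every pollen and root library, with the number of genes on an axis that is linear to 10 and logarithmic above. The 9 genes lie left of the dashed line at 1 FPKM, at the thin lower end of a distribution whose median is 26.2 FPKM.

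In leaf, the 9 genes had means of 0.0618 to 0.618 FPKM over the 4 libraries, and 8 of their 36 leaf values were listed at 0. Cp4.1LG20g01800 was listed at 0 in all 3 treated leaf libraries and at 0.247 FPKM in control leaf. Cp4.1LG04g09350 was listed at 0 in CuSO4 and control leaf. Of the 8 zeros, 5 were in the CuSO4 leaf library and 1 in each of the other 3 leaf libraries. Over all genes, 4414 were listed at 0 in CuSO4 leaf, against 4584 under nanoparticles, 3948 under bulk CuO and 4561 in the control. The rule capped these leaf values, and values near 0 may be single reads. The highest leaf values were those of Cp4.1LG03g07970, which stood at 0.370 to 0.865 FPKM, and Cp4.1LG05g14440, at 0.839 FPKM under bulk CuO, 0.802 FPKM under CuSO4, 0.347 FPKM under nanoparticles and 0.243 FPKM in the control.

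The comparison of pollen with root asked how evenly the 2 tissues shared these transcripts, which the rule did not fix beyond its floor. On the log2(FPKM + 1) scale, 3 of the 9 genes were higher in pollen, 1 was lower in pollen and 5 did not pass the test. The test was limma over the 4 pollen and 4 root libraries with treatment as a block, at a Benjamini-Hochberg adjusted p under 0.05 over 22315 genes and a difference of at least 1. Of all genes tested, 12.2% were called higher in pollen and 70.3% lower. Among the other 3181 genes at 5 FPKM or more in both tissues, 22.4% were called higher and 31.1% lower. All pollen values lay above all root values in 3 of the 9 genes and below them in 1, against 31.5% and 43.1% of those 3181 genes. The median difference of the 9 genes was -0.07, against -0.26 for those 3181 genes and -1.92 for all genes tested.

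Cp4.1LG04g06310 was the most abundant of the 9 in pollen. It stood in pollen at 465 FPKM under nanoparticles, 393 FPKM under bulk CuO, 455 FPKM under CuSO4 and 445 FPKM in the control, against 34.2, 19.8, 15.6 and 24.3 FPKM in the same order in root. Every pollen library was far above every root library, and the means were 439 ± 32.2 FPKM in pollen and 23.5 ± 8.01 FPKM in root (SD, n = 4 libraries each). The difference was 4.22 on the log2 scale (SE 0.19, limma adjusted p = 3.74e-06), a ratio of mean FPKM of 18.7. Only 1.16% of all genes had a higher mean in pollen.

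Cp4.1LG20g01800 had the second largest difference. Its pollen values were 106.5, 110.0, 103 and 102 FPKM under nanoparticles, bulk CuO, CuSO4 and in the control, against 6.33, 11.01, 7.70 and 16.5 FPKM in root. Pollen was above root in all 4 treatments, and pollen values lay close together while root values did not. The difference was 3.30 (SE 0.23, limma adjusted p = 2.05e-05), from means of 105 ± 3.71 FPKM in pollen and 10.4 ± 4.51 FPKM in root (SD, n = 4 libraries each).

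Cp4.1LG04g09350 was the third gene higher in pollen. It stood in pollen at 19.2, 28.7, 26.1 and 17.4 FPKM under nanoparticles, bulk CuO, CuSO4 and in the control, against 9.34, 5.99, 7.08 and 6.89 FPKM in root. The groups did not overlap, and the difference was 1.51 (SE 0.22, limma adjusted p = 0.00061). Its pollen mean was 3.12 times its root mean.

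Cp4.1LG05g10130 was lower in pollen and the most abundant of the 9 in root. It stood at 51.0, 52.2, 45.0 and 45.6 FPKM in pollen under nanoparticles, bulk CuO, CuSO4 and in the control, against 88.1, 123, 131 and 104 FPKM in root. All 4 root libraries were above all 4 pollen libraries, and only 2.89% of all genes had a higher mean in root. The difference was -1.17 (SE 0.15, limma adjusted p = 0.000373). Relative to the 3190 genes shared by pollen and root, each library being shifted to their common median, it was -0.88 (SE 0.16, limma adjusted p = 0.00213), short of the minimum difference of 1.

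In the other 5 genes the pollen and root values overlapped, and none passed the test. Cp4.1LG01g21640 stood at 42.8, 42.3, 39.4 and 36.5 FPKM in pollen under nanoparticles, bulk CuO, CuSO4 and in the control, against 26.6, 27.9, 62.4 and 36.2 FPKM in root. Its difference was 0.15 (SE 0.24, limma adjusted p = 0.559). The controls of both tissues were nearly equal, and the pollen values sat inside the range of the root values.

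Cp4.1LG02g05390 stood at 10.8, 8.98, 8.19 and 7.60 FPKM in pollen, in the same order of treatments, against 5.64, 6.64, 15.0 and 13.01 FPKM in root. Cp4.1LG17g09230 stood at 6.91, 9.04, 7.63 and 8.92 FPKM in pollen, against 7.89, 5.24, 17.3 and 9.76 FPKM in root. These were the 2 genes with the lowest pollen means, and their differences of -0.07 and -0.17 were smaller than their standard errors of 0.31 and 0.28 (limma adjusted p = 0.832 and 0.58).

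Cp4.1LG05g14440 varied most in pollen. It stood at 28.9, 14.1, 21.3 and 51.9 FPKM in pollen under nanoparticles, bulk CuO, CuSO4 and in the control, against 22.4, 19.2, 76.1 and 20.6 FPKM in root. The highest pollen library was the control and the highest root library was CuSO4. Its difference of -0.14 had a standard error of 0.48 (limma adjusted p = 0.782).

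Cp4.1LG03g07970 stood at 11.2, 7.98, 11.8 and 10.8 FPKM in pollen, in the same order, against 19.3, 29.0, 6.27 and 21.9 FPKM in root. Pollen was below root in 3 of 4 treatments and above it under CuSO4. The difference was -0.65 (SE 0.40, limma adjusted p = 0.159). This call rested on the CuSO4 pair: without the CuSO4 root library the difference was -1.14 (SE 0.25, limma adjusted p = 0.00754), and without the CuSO4 pollen library -1.14 (SE 0.25, limma adjusted p = 0.00828), so that 2 of the 9 genes were then called lower in pollen.

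**Figure D2:**
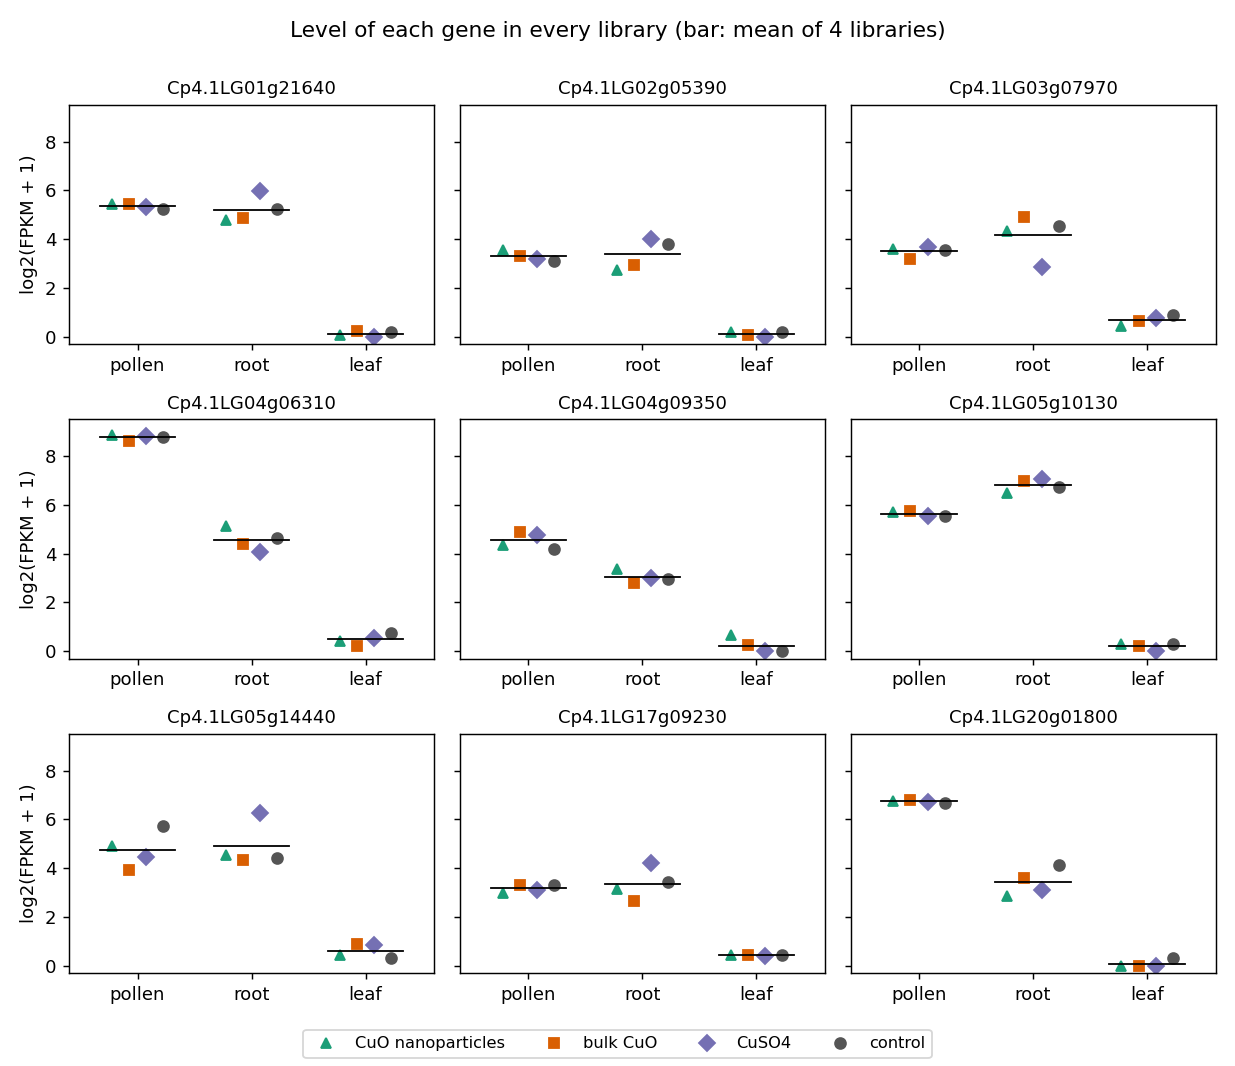
Level of each of the 9 genes as log2(FPKM + 1) in the 4 pollen, 4 root and 4 leaf libraries, with 1 point per library and a bar at the mean of the tissue. Pollen points of Cp4.1LG04g06310 (393 to 465 FPKM) stand far above its root points, those of Cp4.1LG05g10130 (45.0 to 52.2 FPKM) stand below its root points, and all leaf points are under 1 FPKM.

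How many of the 9 genes counted as higher in pollen depended on scaling. With every library shifted to the common median of the 3190 shared genes, 3 genes were higher in pollen and 0 lower, against 13.9% and 63.6% of all genes tested and 26.9% and 24.7% of the other 3181 shared genes. With the common median of all genes tested, 9 were higher and 0 lower, against 35.8% and 21.4% of all genes and 75.1% and 2.86% of the other shared genes. That median also covers genes averaging 1 FPKM or more in only 1 tissue, and fewer genes reached 1 FPKM in pollen than in root. The shift raised pollen against root by the same amount for every gene, from 0.15 to 2.44 for Cp4.1LG01g21640. After quantile normalization 6 were higher and 0 lower, against 25.8% and 28.2% of all genes and 52.5% and 13.5% of the other shared genes. Cp4.1LG04g06310, Cp4.1LG20g01800 and Cp4.1LG04g09350 were called higher under each of these scalings, and their smallest differences were 4.22, 3.30 and 1.51, as deposited. Cp4.1LG05g10130 changed sign with the common median of all genes, to 1.11 (SE 0.20, limma adjusted p = 0.00241).

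**Figure D3:**
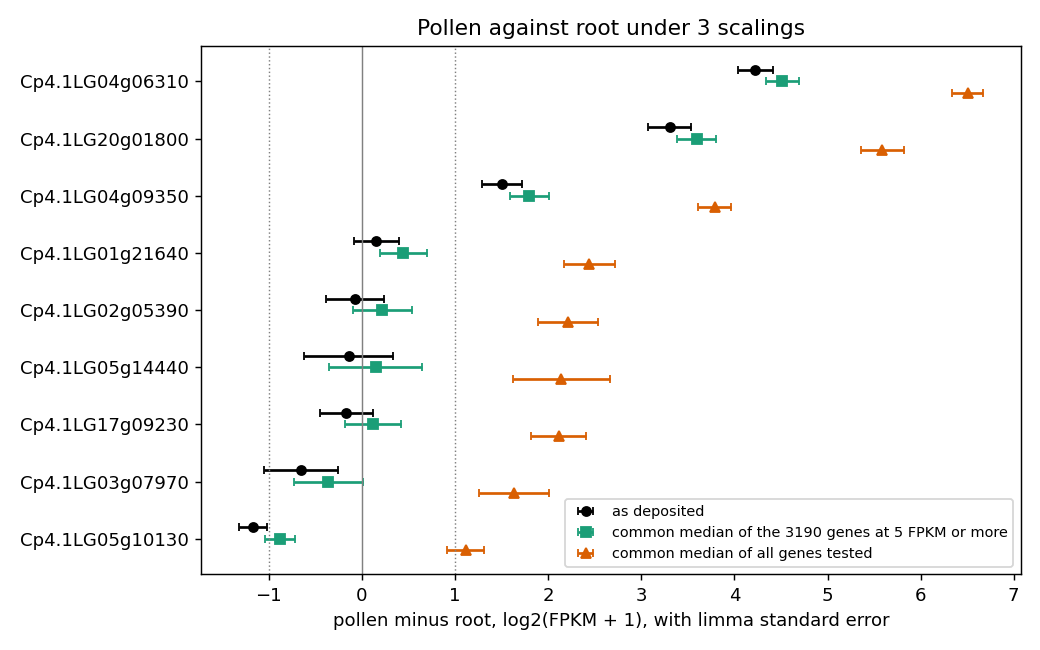
Pollen minus root on the log2(FPKM + 1) scale for each gene, with limma's standard error, under 3 scalings, and dotted lines at the minimum difference of 1. Cp4.1LG04g06310, Cp4.1LG20g01800 and Cp4.1LG04g09350 stay right of 1 under all 3, while the other 6 genes move from around or below 0 as deposited to above 1 with the common median of all genes.

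The comparison of each copper material with untreated plants asked whether the genes shared by pollen and root differ with copper in the soil. At the submitters' threshold of 2.3 on the log2(FPKM + 1) scale, 0 of the 9 genes differed, in either direction, in any of the 6 comparisons with control, 3 materials in pollen and 3 in root, or in the 6 direct comparisons of materials. Among genes averaging 1 FPKM or more in a tissue, 2.51% passed 2.3 against control under at least 1 material in pollen and 1.70% in root. Between materials 1.57% passed it in pollen and 3.02% in root. The floor of 5 FPKM in every pollen and root library keeps out genes that drop below it, so the count is partly fixed by the rule. At a difference of 1 from control, the genes past the threshold were Cp4.1LG05g14440 in pollen, and Cp4.1LG02g05390, Cp4.1LG20g01800, Cp4.1LG05g14440 and Cp4.1LG03g07970 in root.

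In pollen, Cp4.1LG05g14440 was the only gene of the 9 past 1 against the control. Its difference was -0.82 under nanoparticles, -1.81 under bulk CuO and -1.25 under CuSO4, where 0.438%, 1.15% and 0.635% of all pollen genes were lower by at least 1. Of the other 3181 shared genes, 0.0314%, 0.126% and 0.0943% were. All 3 comparisons share the control library, in which the gene stood at 51.9 FPKM. The other 8 genes differed from control pollen by at most 0.69, the value of Cp4.1LG04g09350 under bulk CuO, which was also the leading higher gene under CuSO4 with 0.56. The leading higher gene under nanoparticles was Cp4.1LG02g05390 with 0.46. At a difference of 1, 0 of the 9 were higher under nanoparticles, bulk CuO or CuSO4, against 2.59%, 7.38% and 8.57% of all pollen genes. Among the other shared genes, which carry the same floor, the shares were 0.409%, 2.04% and 2.11%. The signs of some of the smaller differences depended on scaling. As deposited 7, 6 and 6 of the 9 were above control under nanoparticles, bulk CuO and CuSO4, and 65.1%, 53.8% and 54.8% of the other shared genes. After a shift to the common median of pollen genes these were 2, 4 and 1, and 40.6%, 31.5% and 27.8%. Before that shift the medians of the treated libraries had stood 0.16, 0.16 and 0.19 above the control library. After quantile normalization they were 6, 5 and 1 of the 9, and 46.7%, 38.7% and 35.1% of the other shared genes.

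In root under nanoparticles, 2 of the 9 genes were lower than control by at least 1, where 1.42% of all root genes and 0.723% of the other 3181 shared genes were. Cp4.1LG20g01800 was at 6.33 FPKM under nanoparticles and 16.5 FPKM in control root, which is a difference of -1.25, and Cp4.1LG02g05390 was at 5.64 FPKM, against 13.01 FPKM, a difference of -1.08. The leading higher gene was Cp4.1LG04g06310 with 0.48. By at least 1, 0 of the 9 were higher, against 2.29% of all root genes and 0.251% of the other shared genes. Under bulk CuO, 0 of the 9 were past 1 in either direction, against 6.66% of root genes higher and 5.74% lower. Among the other shared genes 4.21% were higher and 2.51% lower. The leading genes there were Cp4.1LG03g07970, with a difference of 0.39, and Cp4.1LG02g05390, with -0.87.

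CuSO4 gave the widest differences in root. Cp4.1LG05g14440 was at 76.1 FPKM under CuSO4 and 20.6 FPKM in control root, which is a difference of 1.83, and was 1 of 9 genes higher by at least 1, against 2.53% of all root genes and 0.409% of the other shared genes. Cp4.1LG03g07970 stood at 6.27 FPKM, against 21.9 FPKM, a difference of -1.66, and Cp4.1LG20g01800 at 7.70 FPKM, against 16.5 FPKM, a difference of -1.01. These 2 of 9 genes were lower by at least 1, against 2.63% of all root genes and 1.45% of the other shared genes. Cp4.1LG01g21640 and Cp4.1LG17g09230 were higher by 0.77 and 0.76. In root 6 of the 9 were above control under CuSO4, while 32.6% of the other 3181 shared genes were, and 3 and 2 were above it under nanoparticles and bulk CuO, against 45.7% and 44.0%. The counts of the 9 were the same after a median shift and after quantile normalization, but the shares of the other genes moved. Under nanoparticles, bulk CuO and CuSO4 they were 32.8%, 49.2% and 40.5% after the shift. After quantile normalization they were 45.9%, 45.9% and 40.0%.

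**Figure D4:**
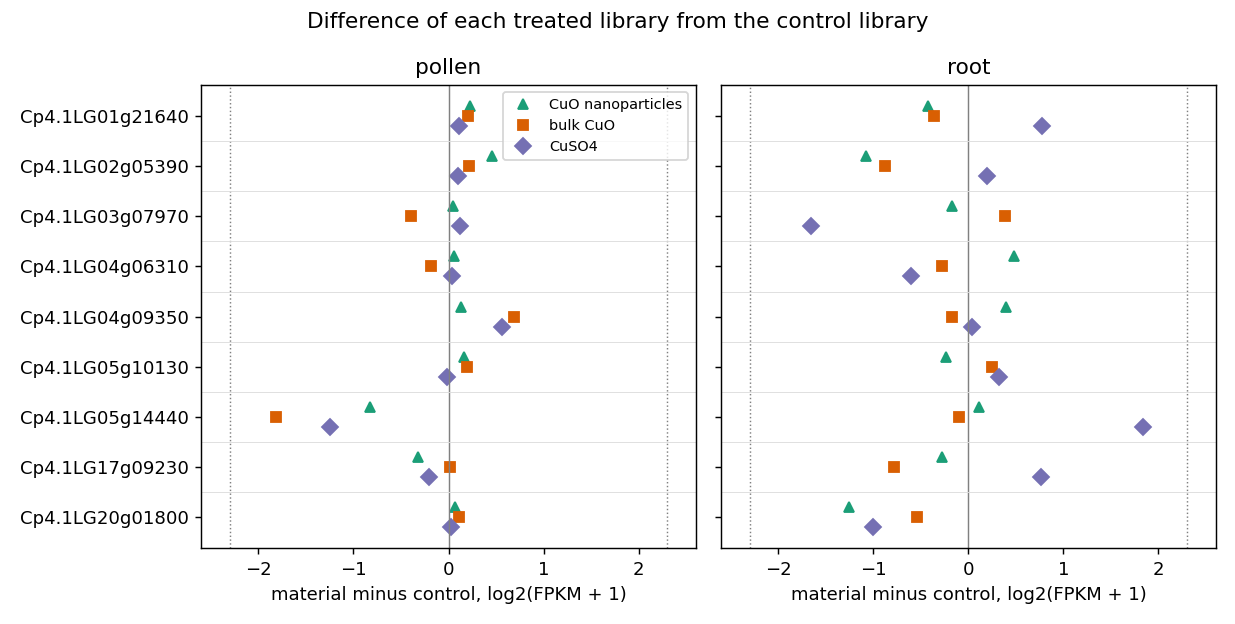
Each treated library minus the control library of its tissue, as log2(FPKM + 1), for the 9 genes in pollen (left) and root (right), with 1 point per material and dotted lines at 2.3. No point reaches 2.3, pollen points other than those of Cp4.1LG05g14440 lie within 0.69 of 0, and root points reach -1.66 and 1.83, both under CuSO4.

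Direct comparisons of the materials leave the control library out. In root, 4 of the 9 genes were higher and 2 lower by at least 1 under CuSO4 than under nanoparticles, against 3.05% and 3.62% of all root genes and 1.26% and 1.01% of the other shared genes. The largest differences were 1.72 for Cp4.1LG05g14440 and -1.48 for Cp4.1LG03g07970. Between CuSO4 and bulk CuO in root, 4 were higher and 1 lower under CuSO4, against 5.77% and 6.68%, with 2.42% and 5.31% of the other shared genes, led by Cp4.1LG05g14440 with 1.93 and Cp4.1LG03g07970 with -2.04. Between bulk CuO and nanoparticles in root 0 were past 1, against 8.37% higher and 9.25% lower, with 6.7% and 3.49% of the other shared genes. The leading genes were Cp4.1LG20g01800 with 0.71 and Cp4.1LG04g06310 with -0.76.

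In pollen 0 of the 9 genes were past 1 in any direct comparison. Bulk CuO against nanoparticles was led by Cp4.1LG04g09350 with 0.56 and Cp4.1LG05g14440 with -0.99, and 4.23% of all pollen genes were higher and 1.44% lower by at least 1. CuSO4 against nanoparticles was led by the same genes with 0.42 and -0.43, with 5.39% and 1.23% of pollen genes past 1. CuSO4 against bulk CuO was led by Cp4.1LG05g14440 with 0.56 and Cp4.1LG17g09230 with -0.22, with 1.32% and 0.545%. Among the other shared genes, 0.754% were higher and 0.283% lower for bulk CuO against nanoparticles. The shares were 1.26% and 0.22% for CuSO4 against nanoparticles, and 0.126% and 0.0629% for CuSO4 against bulk CuO.

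The CuSO4 root library held the highest of the 4 root values for 5 of the 9 genes: Cp4.1LG01g21640, Cp4.1LG02g05390, Cp4.1LG05g10130, Cp4.1LG05g14440 and Cp4.1LG17g09230. It did so for 11.3% of the other 3181 shared genes. The count was 5 after a median shift and after quantile normalization as well, with 17.4% and 14.3% of the other genes. For 2 others of the 9, Cp4.1LG03g07970 and Cp4.1LG04g06310, the same library held the lowest root value. This count was chosen after the values were seen, and it rests on 1 library.

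An effect of a material shared by pollen and root was fitted with the tissues in place of replicates. The error of that fit is how much the effect differed between the tissues, not between plants treated alike. A difference common to the plants of a treatment therefore cannot be told apart from an effect of the material. With limma over the 8 libraries and tissue as a block, 0 of the 9 genes had an adjusted p under 0.05 for nanoparticles, bulk CuO or CuSO4, and 0 had an unadjusted p under 0.05. Of 9855 genes tested, 0% were called for each material, and 228, 531 and 345 had an unadjusted p under 0.05. As the fit called no gene at all, the 0 of the 9 does not show that these genes lack a shared effect. Cp4.1LG05g14440 had the largest estimate, -0.95 under bulk CuO (SE 0.68, limma adjusted p = 0.768), made of -1.81 in pollen and only -0.097 in root. Its CuSO4 estimate of 0.29 (SE 0.68, limma adjusted p = 0.998) was made of a higher value in root and a lower one in pollen.

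Values of the 9 genes were more spread over the 4 root libraries than over the 4 pollen libraries. The median range, highest minus lowest library on the log2(FPKM + 1) scale, was 0.34 in pollen and 1.25 in root, against 0.33 and 0.52 for the other 3181 shared genes, which carry the same floor. The root range was larger than the pollen range for 8 of the 9, and for 71.0% of the others. In root, Cp4.1LG03g07970 had the largest range of the 9, 2.04, wider than 97.8% of the other genes, and Cp4.1LG05g10130 the smallest, 0.56. In pollen, Cp4.1LG05g14440 had the largest, 1.81, wider than 99.3% of the other genes, and Cp4.1LG20g01800 the smallest, 0.11, wider than 5.66%. The exception with a larger range in pollen was Cp4.1LG04g09350, with 0.69 in pollen and 0.56 in root. One library carried much of the root spread: without CuSO4 root the median range was 0.56 for the 9 genes and 0.43 for the others, against 1.07 to 1.20 and 0.35 to 0.45 without any other root library.

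**Figure D5:**
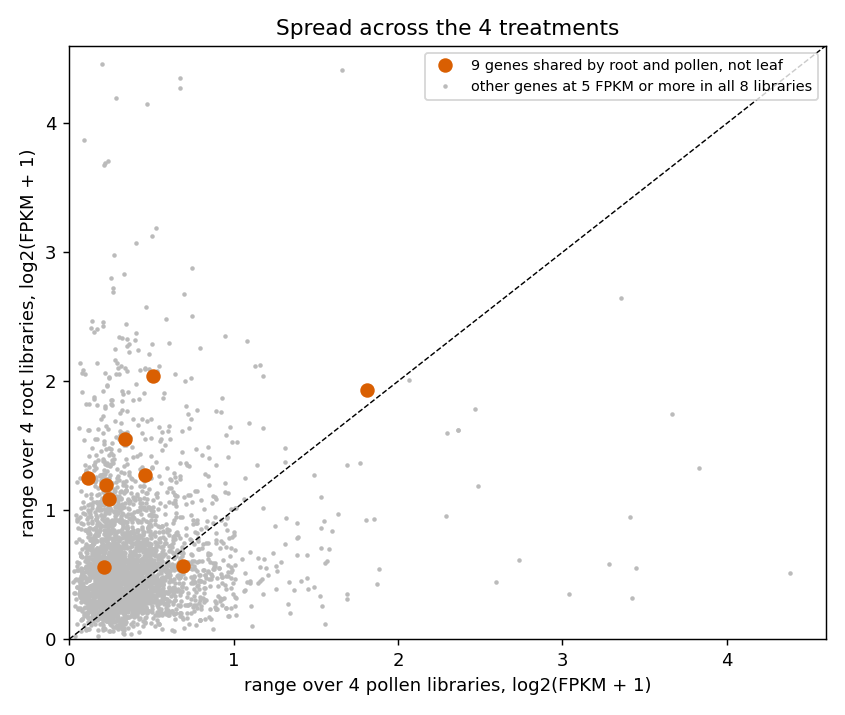
Range over the 4 pollen libraries (x axis) and over the 4 root libraries (y axis), both as log2(FPKM + 1), for the 9 genes and for the other 3181 genes at 5 FPKM or more in all 8 libraries, with a dashed line where the ranges are equal. Of the 9 points, 8 lie above the line and 7 have a root range of at least 1.09.

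The 9 genes did not sit together in the order of gene IDs. Their linkage group prefixes were 7 of the 21 in the table, with 2 genes each under LG04 and LG05 and 1 each under LG01, LG02, LG03, LG17 and LG20. None of their 18 neighbours in ID order was one of the 9, and 0 of the 18 had tissue means of at least 5 FPKM in pollen and root and under 1 FPKM in leaf. Of all 27868 genes only 53 had such means, so a count of 0 in 18 says little about position. A mean of at least 5 FPKM was found for 3 neighbours in pollen, 12 in root and 12 in leaf, against 20.2%, 52.6% and 54.9% of all genes. None of the 9 shared all its values with another gene of the table.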

How the data were processed

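The authors deposited 1 table of FPKM per gene and library, normalized by them, with no read counts. Reads were single-end, of 75 bp, from stranded mRNA libraries, and were aligned with STAR to a reference transcriptome, per the labels' protocols and the series design text. Cutadapt and StringTie are named, without versions, in the submitters' processing notes. Whether extracts of several plants were pooled is not stated in the sources used here.

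Differences were taken on log2(FPKM + 1), a scale that understates changes of low genes. Limma 3.58.1 (R 4.3.3, empirical Bayes with a trend) was fitted to all genes averaging 1 FPKM or more in pollen or root (in both for shared effects). Leaf libraries stayed out because the rule caps them. Single-library differences were described by size. Library depth was compared within a tissue by the most common ratio of values between 0.05 and 1.5 FPKM. Other steps used Python 3.11.15, numpy 2.4.6, pandas 2.3.3 and matplotlib 3.10.9. The fits were also run on simulated data with independent normal noise. For pollen against root the simulated libraries had the same scale, so that run does not bear on the choice of scaling.

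The 9 genes and the comparisons were chosen with earlier results of these data known. Named per comparison were the leading genes by log2 difference (at most 2 per direction), the most abundant, the most and least spread, and those at the thresholds. Lists of named marker genes planned for tissues, tip growth and metal transport could not be applied. Alternatives varied the thresholds, pseudocount, scaling, filter, block and libraries.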

Additional observations from a re-analysis of the deposited data

Results flagged for a closer look

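Each gene's 4 values in a tissue were examined for a library far from the other 3, in 27 sets of 4. For normally distributed values chance alone would mark about 5% of sets, and 2 of the 27 were marked. The leaf sets were capped by the rule and lie at or near 0, so that share does not apply to them. The CuSO4 root value of Cp4.1LG05g14440, 76.1 FPKM, was marked: its gap to the next root library was 0.945 of the whole range. The control leaf value of Cp4.1LG20g01800, 0.247 FPKM, was marked because the 3 treated leaf libraries were listed at 0.

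Cp4.1LG20g01800 was above control in all 3 treated pollen libraries (103 to 110.0 FPKM, against 102 FPKM in control pollen) and below control in all 3 treated root libraries (6.33 to 11.01 FPKM, against 16.5 FPKM in control root). The difference between the tissues was not tested, the 3 comparisons of a tissue share 1 control library, and after a shift to the common median of pollen genes all 3 pollen differences were negative (-0.09, -0.05 and -0.17 on the log2 scale under nanoparticles, bulk CuO and CuSO4), while after quantile normalization they were 0.028, 0.025 and -0.064.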

How the results depend on the processing

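The number of genes meeting the rule was 9, and it was 39 with a floor of 2 FPKM, 4 with a floor of 10 FPKM, 5 with a leaf ceiling of 0.5 FPKM, 25 with a ceiling of 2 FPKM and 53 when tissue means were held to the thresholds. Leaving out 1 library at a time gave 9 to 15 genes.

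For pollen against root, the common median of all genes gave 9 genes higher and 0 lower and a median difference of 2.21, quantile normalization gave 6, 0 and 1.71, and the common median of the 3190 shared genes gave 3 and 0. Leaving out 1 library at a time gave 3 higher, 1 to 2 lower and medians of -0.17 to 0.41. Pseudocounts of 0.1 and 5, no filter, no treatment block and all 12 libraries kept the counts at 3 and 1. Signs turned for genes that had not passed the test and for Cp4.1LG05g10130. The common median of all genes gave 2.21 for Cp4.1LG02g05390, 1.63 for Cp4.1LG03g07970, 1.11 for Cp4.1LG05g10130, 2.14 for Cp4.1LG05g14440 and 2.11 for Cp4.1LG17g09230. Quantile normalization gave 1.78 for Cp4.1LG02g05390, 1.001 for Cp4.1LG03g07970, 1.02 for Cp4.1LG05g14440 and 1.71 for Cp4.1LG17g09230. The common median of the shared genes gave 0.22 for Cp4.1LG02g05390, 0.15 for Cp4.1LG05g14440 and 0.12 for Cp4.1LG17g09230. With 1 library left out the differences ran from -0.016 to 0.42 for Cp4.1LG01g21640, from -0.37 to 0.17 for Cp4.1LG02g05390, from -0.62 to 0.41 for Cp4.1LG05g14440 and from -0.46 to 0.13 for Cp4.1LG17g09230. The low end of the first came without a nanoparticle library, and the high ends of all 4 without a CuSO4 library. Removing 1 library of a pair leaves the other without weight in the blocked fit. The cause of the other shifts was not tested.

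At a threshold of 1 in place of 2.3, the counts were 1 lower in pollen under bulk CuO and 1 under CuSO4. In root they were 2 lower under nanoparticles, 1 higher and 2 lower under CuSO4, 4 higher and 2 lower for CuSO4 against nanoparticles, and 4 higher and 1 lower for CuSO4 against bulk CuO. Other settings kept these counts at 0. The counts of shared effects, by adjusted and by unadjusted p, stayed at 0 under every alternative run over all 8 pollen and root libraries. With 1 library left out, a treatment has only 1 library in that fit, and those counts are not given. The median range was 0.24 in pollen and 0.93 in root with a pseudocount of 5, and 0.22 to 0.34 and 0.56 to 1.20 with 1 library left out. Pollen and root libraries were paired by treatment through the block. The labels give 1 library per tissue and treatment, so replicates of a group could not be paired. Absolute depth is unknown, and leaf values near 0 may be single reads.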

Other observations

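Another 16 genes missed the rule in exactly 1 library, 2 of them in a pollen library, 4 in a root library and 10 in a leaf library. In 6 of the 10 that library was control leaf, where they stood at 1.12 to 2.90 FPKM while their highest value in the other leaf libraries was 0.545 to 0.924 FPKM. These genes were singled out after their values were seen. How often control leaf is the highest leaf library over all genes was not counted, and a link with copper was not tested. Among the 16, Cp4.1LG01g10600 averaged 1768 FPKM in pollen and 56.0 FPKM in root and was kept out by 1.38 FPKM in bulk CuO leaf. Cp4.1LG03g11480 was listed at 0 in all 4 leaf libraries and averaged 6.11 FPKM in pollen and 15.6 FPKM in root, and was kept out because it was listed at 0 in CuSO4 pollen.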
